A study of Mus musculus with 8 samples.

Results

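The neuromuscular junction genes are 10 genes that build the contact between a motor nerve ending and a muscle fibre: the 5 subunits of the muscle acetylcholine receptor (Chrna1, Chrnb1, Chrnd, Chrne and Chrng), the agrin pathway (Agrn, Lrp4, Musk and Dok7) and the anchoring protein gene Rapsn. They were taken by gene name from the array annotation, which gave 10 of 37074 gene names and 19 of 56605 probes. The arrays measured RNA from tissue labelled brown adipose tissue (BAT) of C57BL/6J mice aged 12 weeks, taken 18 h after 1 intravenous injection. The 4 Co mice received saline, and the 4 Pg mice received sonicated Porphyromonas gingivalis, a bacterium of periodontal disease, in 100 µL of saline. The labels name no altered gene in either group and do not mention pooling, and each array was taken as 1 mouse. If it was not, the p-values cover only the spread between these samples. The comparison asks how this endotoxemia changed transcripts in the tissue.

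At the motor endplate, agrin released from the nerve binds LRP4 on the muscle fibre, which activates the kinase MuSK. MuSK and its cytoplasmic partner DOK7 then drive rapsyn to cluster acetylcholine receptors under the nerve ending. The receptor of fetal and denervated muscle holds the gamma subunit, and in innervated adult muscle the epsilon subunit takes its place. Electrical activity of the fibre keeps the receptor genes silent outside the synapse, and loss of the nerve releases them. The receptor subunits, Musk, Dok7 and Rapsn are characteristic of skeletal muscle, and brown adipocytes are not known for them, whereas Agrn and Lrp4 are also expressed in other tissues.

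The tissue was checked first, because most of the genes are characteristic of muscle. All 20 skeletal muscle fibre genes looked up were well above background on all 8 arrays, and their summed log2 signal ran from 21.995 to 22.09 in Co mice and from 21.94 to 22.04 in Pg mice. These sums were taken after quantile normalization, which fixes the values of the brightest ranks, so they cannot compare muscle content between the groups. Ucp1, the uncoupling protein that defines brown adipocytes, was well above background on no array, and neither were Elovl3, Slc27a2 and Bmp8b, while 10 of the 14 brown adipocyte genes, such as Cidea and Prdm16, were detected on all 8. Each of the undetected genes has only 1 probe. The study did measure Ucp1 in BAT by quantitative PCR and reported it lower in Pg mice. The RNA therefore held abundant muscle transcripts, and in a bulk sample fewer cells of a type and less RNA per cell cannot be told apart. The fast fibre myosin gene Myh4 varied most within the groups. Its log2 signal was 16.09, 16.97, 13.38 and 16.48 on Co 1 to Co 4 and 11.38, 17.07, 17.01 and 14.38 on Pg 1 to Pg 4, so that Co 3 and Pg 1 were the lowest arrays of their groups. The same 2 arrays were lowest for Actn3, a fast fibre actinin gene (11.78 and 10.49), and Pvalb, the parvalbumin gene (14.77 and 14.39). The part of this spread in the results below was not tested. All Co arrays lay in row 1 of the single slide and all Pg arrays in row 2, so slide row and treatment cannot be told apart.

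Every one of the 10 genes had a probe well above background on at least 7 of the 8 arrays, and 9 of them, all but Chrng, had 1 on all 8. A probe counted as above background where the scanner software flagged it so. Of the 19 probes, 14 passed this on every array. Between 18 and 19 of the 19 passed on a Co array and between 14 and 17 on a Pg array, and over the whole array 34760 to 35831 probes passed on Co arrays against 31132 to 34063 on Pg arrays. Negative control spots had a standard deviation between 2.31 and 2.38 intensity units in the Co group, and between 2.53 and 3.25 in the Pg group. Fewer probes thus passed in Pg mice over the whole array too, and the part of this in the dim probes below was not tested. No member spot was saturated.

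Between groups, 18 probes could be tested, with limma across all 33819 probes above background on at least 4 arrays. Signals are log2 values after quantile normalization, and differences are Pg minus Co on that log2 scale. The sign was positive for 6 of the 18 probes and negative for 12, but the split was 8 to 10 when arrays were scaled to their 75th percentile, and 9 to 9 without normalization. Their median difference was -0.11 against -0.04 over all tested probes, of which 42.3% were positive. At the study's threshold, a Benjamini-Hochberg q under 0.1 and a change above 1.5-fold, 1 probe was called higher (0.313% of all tested probes were) and 0 were called lower (1.30% of all tested probes). Over all probes this split of 106 higher and 440 lower turned with the signal and scaling used, to 66 higher and 28 lower with normexp background correction, 75 and 33 with the median signal, and 20 and 7 without normalization. At an unadjusted limma p under 0.05, 2 probes were higher (6.86% of all) and 3 lower (16.0% of all). Of the 3, Musk A_55_P2496660 was above background on 4 Co arrays and 1 Pg array, and Chrne A_55_P2741190, among the 12 negative signs, on 4 and 0, so both entered the test through the group where they were high. The groups did not overlap for 1 probe higher in Pg mice (4.83% of all) and 1 probe lower (11.0% of all). The 14 probes above background on every array differed by -0.31 to 0.28, with 4 positive and 10 negative, and limma called 0 of them, with 1 higher and 2 lower at an unadjusted p under 0.05.

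**Figure D1:**
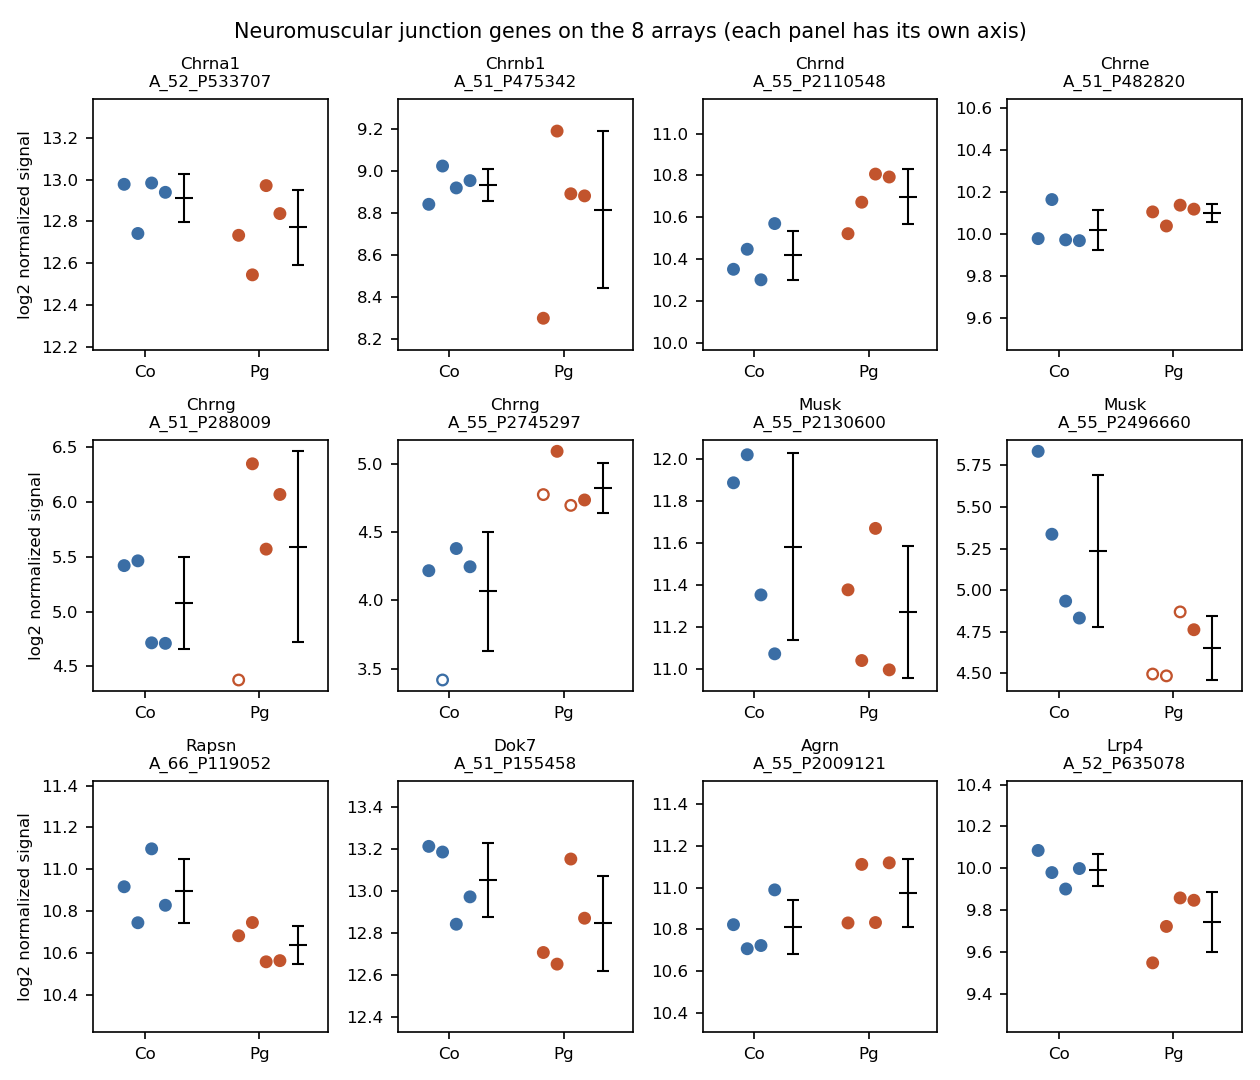
Log2 normalized signal (vertical axis, its own scale in each panel) of 12 probes for the 10 genes on the 4 Co (blue) and 4 Pg (orange) arrays. Filled points were well above background and open points were not, and the black bar gives the mean and SD. Only Chrng A_55_P2745297 and Lrp4 A_52_P635078 have groups that do not overlap, and the first has 3 open points.

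The receptor subunits came first. Chrng encodes the fetal gamma subunit, and the array held 2 probes of the same transcript (NM_009604) at different places of the gene on chromosome 1, the build of all probe positions being mm9. Probe A_55_P2745297 covers chr1:89104811-89104870, starting at base 548 of the transcript, and probe A_51_P288009 covers chr1:89108141-89108200, starting at base 1651. Each lies in 1 unbroken stretch of the genome. Their first 30 bases are shown because the 2 probes gave different results, with no part singled out in capitals.
Chrng A_55_P2745297: aacttgcagctgagccaggaggatgggcaa
Chrng A_51_P288009: tgagtgtgctcttggggaaatacccaaggc

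Probe A_55_P2745297 of Chrng read 4.22, 3.42, 4.38 and 4.25 on Co 1 to Co 4 and 4.78, 5.10, 4.70 and 4.74 on Pg 1 to Pg 4. All 4 Pg arrays were above all 4 Co arrays, and Co 2 was the lowest. The difference was 0.76 (SE 0.21, 95% interval 0.27 to 1.25, n = 4 per group), 1.70-fold, with a limma q of 0.0977. It was the called probe, but its signal was dim: it passed the background mark on 3 Co and 2 Pg arrays, and failed it on Co 2, Pg 1 and Pg 3. The call was kept in 1 of the 15 other settings that gave a value, with q from 0.0867 to 0.192, and it was lost when any array was left out. The difference was 0.17 with normexp, 0.22 with the median signal and 0.95 without normalization. Probe A_51_P288009 read 5.42, 5.46, 4.71 and 4.71 on Co 1 to Co 4 and 4.37, 6.35, 5.57 and 6.07 on Pg 1 to Pg 4. Here Pg 1 was the lowest of all arrays, not well above background, while the other Pg arrays were the highest. The difference was 0.51 (SE 0.43, 95% interval -0.47 to 1.5) with a limma q of 0.510, and it became 0.92 without Pg 1 and 0.26 without Pg 2 or with normexp. The probe that called Chrng and the brighter probe thus shared a sign in the mean and disagreed on Pg 1.

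Chrnd, the delta subunit, is the neighbour of Chrng, with 8166 bases between the Chrnd probe and the nearer Chrng probe. Its probe A_55_P2110548 (NM_021600, chr1:89096585-89096644) was above background on every array. It read 10.35, 10.45, 10.30 and 10.57 on Co 1 to Co 4 and 10.52, 10.67, 10.81 and 10.79 on Pg 1 to Pg 4. The groups overlapped only in that Pg 1 lay below Co 4. The difference was 0.28 (SE 0.09, 95% interval 0.07 to 0.49), 1.21-fold, and did not pass with a limma q of 0.126 (unadjusted p = 0.0142). The estimate stayed between 0.24 and 0.34 in the 17 other settings. Among the 14 member probes detected on all arrays it had the largest positive difference.

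Chrna1, the alpha subunit that binds acetylcholine, showed no such difference. Its probe A_52_P533707 (NM_007389, chr2:73404112-73404171) read 12.98, 12.74, 12.98 and 12.94 on Co 1 to Co 4 and 12.73, 12.55, 12.97 and 12.84 on Pg 1 to Pg 4. The groups overlapped over most of their range, and Pg 2 was the lowest. The difference was -0.14 (95% interval -0.38 to 0.10, limma q = 0.461), so the interval holds neither a 1.5-fold rise nor a 1.5-fold fall. Without Pg 2 the difference was -0.063. Chrnb1, the beta subunit, has a probe that crosses an intron (A_51_P475342, NM_009601, 60 bases spread over 569 bases of chr11:69598674-69599242). Its Co values lay between 8.84 and 9.02, whereas Pg 1 read 8.30 and Pg 2 read 9.19. The difference was -0.12 (SE 0.17, limma q = 0.715), and it became 0.05 without Pg 1.

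Chrne, the adult epsilon subunit, gave the smallest standard error of the 18 tested probes. Its probe A_51_P482820 (NM_009603, chr11:70428391-70428450) read 9.97 to 10.17 on Co arrays and 10.04 to 10.14 on Pg arrays. The difference was 0.08 (SE 0.06, 95% interval -0.07 to 0.23, limma q = 0.499), and it was 0.13 without Co 2, the highest array, and 0.048 when arrays were scaled to their 75th percentile. A second probe, A_55_P2741190, matches the predicted transcript XM_006532008 and crosses an intron, its 60 bases spanning 764 bases of chr11:70431165-70431928. It was well above background on 4 Co arrays and on 0 Pg arrays. It therefore entered the test through the Co arrays alone. The measured means were 4.77 in Co and 4.40 in Pg mice, a difference of -0.38 (95% interval -0.89 to 0.14, limma q = 0.355), which became -0.07 with the median signal, -0.10 with normexp and -0.13 in the deposited table. So the fetal and adult subunits are not shown to move apart: the gamma probes differed by 0.76 and 0.51 and the main epsilon probe by 0.08, and the difference between them was not tested.

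Upstream sequence of the receptor genes is shown because myogenic factors reach them through E-boxes and a synaptic factor reaches Chrne through an N-box. The promoter table, from RefSeq for GRCm38.p6, held 9 transcription starts for 7 of the 10 genes. Chrnd, Rapsn and Lrp4 are named only. The 250 bases before each start were searched on both strands for the E-box CANNTG, its myogenic form CAGNTG, which is a subset of it, and the N-box CCGGAA. In the 4 sequences here, read in the direction of transcription, capitals mark CAGNTG on either strand and CCGGAA. Chrng lies at chr1:87205561-87205810 on the plus strand, Chrne at chr11:70619195-70619444, Chrna1 at chr2:73580339-73580588 and Chrnb1 at chr11:69795938-69796187, the last 3 on the minus strand.
Chrng: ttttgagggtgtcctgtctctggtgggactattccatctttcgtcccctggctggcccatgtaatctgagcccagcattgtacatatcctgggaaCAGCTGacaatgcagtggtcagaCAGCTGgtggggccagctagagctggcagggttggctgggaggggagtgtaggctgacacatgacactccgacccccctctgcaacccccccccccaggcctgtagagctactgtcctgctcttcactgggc
Chrne: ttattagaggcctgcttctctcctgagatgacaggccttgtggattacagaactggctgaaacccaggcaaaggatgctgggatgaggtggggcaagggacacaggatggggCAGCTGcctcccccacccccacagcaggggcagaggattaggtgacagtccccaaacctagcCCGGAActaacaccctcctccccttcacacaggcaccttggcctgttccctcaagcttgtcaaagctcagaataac
Chrna1: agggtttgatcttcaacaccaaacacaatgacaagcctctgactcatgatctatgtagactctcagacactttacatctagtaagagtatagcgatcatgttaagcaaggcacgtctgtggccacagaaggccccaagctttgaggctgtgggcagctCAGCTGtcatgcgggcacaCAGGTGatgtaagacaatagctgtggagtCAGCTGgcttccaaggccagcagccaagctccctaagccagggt
Chrnb1: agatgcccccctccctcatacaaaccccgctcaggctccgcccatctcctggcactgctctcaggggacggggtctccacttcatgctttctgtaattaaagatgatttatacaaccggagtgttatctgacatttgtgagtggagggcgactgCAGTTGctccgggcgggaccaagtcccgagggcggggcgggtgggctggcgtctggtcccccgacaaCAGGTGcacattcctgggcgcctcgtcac

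Chrna1 held 3 matches to CAGNTG, Chrng and Chrnb1 held 2 each and Chrne held 1. Musk, the receptor kinase, also held 2. Of all 32851 promoters in the table, 44.8% held at least 1 such match and 66.2% held the general E-box. The N-box, present in 12.0% of all promoters, was found among the 9 starts only at Chrne, at positions -76 to -71 from the start. For Dok7 and Agrn, 1 of the 2 starts each held a single E-box and the other start held none. These are letter matches in a fixed window, and no binding was measured.

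**Figure D2:**
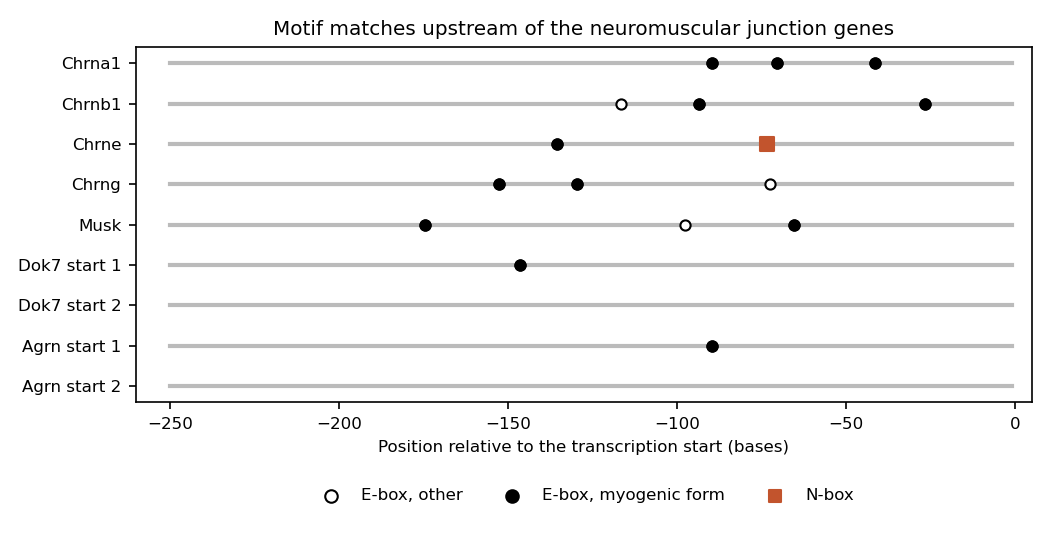
Matches in the 250 bases before 9 transcription starts of 7 genes (horizontal axis, bases relative to the start). Filled circles are CAGNTG, open circles other E-boxes and the square is the N-box. The N-box is found at Chrne alone, and Chrna1 has 3 filled circles.

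The agrin pathway was read from its 4 genes. Agrn encodes agrin, made by motor neurons in its clustering form and by muscle and other tissues in other forms. Its probe A_55_P2009121 (NM_021604, chr4:155539415-155539474) read 10.82, 10.71, 10.72 and 10.99 on Co 1 to Co 4 and 10.83, 11.11, 10.83 and 11.12 on Pg 1 to Pg 4. The difference was 0.16 (SE 0.10, limma q = 0.379) with overlapping groups. Its other probe, A_55_P2009127 (chr4:155546878-155546937), passed the background mark on 2 Co arrays and on 0 of the Pg arrays and was not tested, and no fold is given.

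Lrp4, the agrin receptor, has 4 probes. A_52_P635078 (NM_172668, chr2:91353832-91353891, starting at base 7801 of the transcript) read 10.09, 9.98, 9.90 and 9.999 on Co 1 to Co 4 and 9.55, 9.72, 9.86 and 9.85 on Pg 1 to Pg 4. All Pg arrays were below all Co arrays, although Pg 3 and Co 3 lay close. The difference was -0.25 (SE 0.08, 95% interval -0.44 to -0.05), 1.19-fold, with an unadjusted p of 0.0191 and a limma q of 0.142. With normexp the q was 0.0756 and with the median signal 0.0929, at differences of -0.27 and -0.24 that stayed under 1.5-fold. The other probe of that transcript, A_66_P139374 at base 2202, differed by 0.07 (limma q = 0.759). The 2 probes of the second transcript (NM_001145857) differed by -0.07 and -0.09. The difference was thus negative at 3 of the 4 Lrp4 probes, of which the 2 of the second transcript turned positive without normalization or with scaling to the 75th percentile, the groups did not overlap at 1, and differences between probes were not tested.

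Musk encodes the muscle-specific kinase itself. Probe A_55_P2130600 (NM_001037127, chr4:58387070-58387129) read 11.89, 12.02, 11.35 and 11.07 on Co 1 to Co 4 and 11.38, 11.04, 11.67 and 10.99 on Pg 1 to Pg 4. Co 1, Co 2 and Pg 3 were the high arrays, so the spread within the groups (SD 0.45 in Co and 0.32 in Pg) was as large as the difference of -0.31 (SE 0.24, limma q = 0.482). The difference was -0.17 without Co 2 and -0.48 without Co 4. Probe A_55_P2496660 lies at chr4:58368880-58368939 and represents another transcript variant (NM_001165996). It read 5.83, 5.34, 4.93 and 4.83 on Co 1 to Co 4 and 4.50, 4.49, 4.87 and 4.76 on Pg 1 to Pg 4. It was above background on all Co arrays and on 1 Pg array, with the groups overlapping at Pg 3. The difference of -0.58 (SE 0.22, 95% interval -1.09 to -0.07) had an unadjusted p of 0.0305 and a limma q of 0.174. It became -0.38 without Co 1, -0.25 with normexp and -0.27 with the median signal, and the probe entered the test through the Co arrays. The first bases of both probes are given, again without capitals, and the variant named for each comes from the array annotation.
Musk A_55_P2130600: gtttagttcttccttgcacagaatatgtaa
Musk A_55_P2496660: gcagaatcctaatgctctcctaattgcata

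Dok7 encodes the adaptor that MuSK needs for activation inside the fibre. Probe A_51_P155458 (ENSMUST00000114270, chr5:35423495-35423554) read 13.21, 13.19, 12.84 and 12.97 on Co 1 to Co 4 and 12.71, 12.65, 13.15 and 12.87 on Pg 1 to Pg 4. Co 1, Co 2 and Pg 3 were again the high arrays. The difference was -0.21 (SE 0.13, limma q = 0.391), and the second probe of this transcript, A_55_P2741057, differed by -0.27 (limma q = 0.314), or by -0.16 without Co 1. The probe of the other transcript (A_51_P322941, NM_172708, chr5:35430382-35430441) differed by -0.02 (limma q = 0.935), with Pg 3 standing above the other Pg arrays.

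Rapsn encodes rapsyn, the scaffold under the receptor clusters. Its probe A_66_P119052 (NM_009023) crosses an intron, with 60 bases over 466 bases of chr2:90885183-90885648. It read 10.92, 10.75, 11.10 and 10.83 on Co 1 to Co 4 and 10.68, 10.75, 10.56 and 10.56 on Pg 1 to Pg 4. The groups met only at Co 2 and Pg 2. The difference was -0.26 (SE 0.09, 95% interval -0.47 to -0.05), 1.20-fold, with an unadjusted p of 0.0202 and a limma q of 0.145. The estimate was negative in all 17 other settings, from -0.31 to -0.19.

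**Figure D3:**
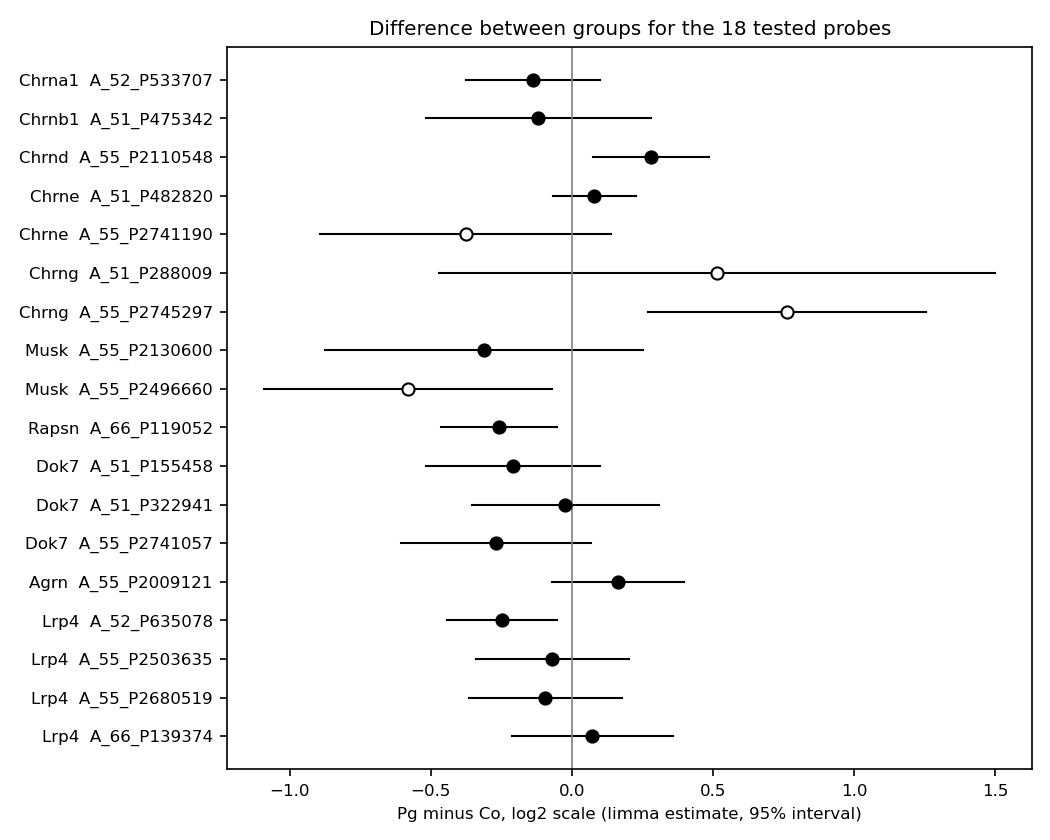
Pg minus Co difference on the log2 scale (horizontal axis) for the 18 tested probes, with the limma estimate and its 95% interval. Filled points were above background on all 8 arrays and open points were not. Intervals that leave 0 out are those of Chrnd, Chrng A_55_P2745297, Musk A_55_P2496660, Rapsn and Lrp4 A_52_P635078, and the filled points lie between -0.31 and 0.28.

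With 1 probe per gene (the brightest on average), 0 of the 10 genes were called by limma, 1 was higher and 2 lower at an unadjusted p under 0.05, while 0.323% of the 22323 genes tested were called higher and 0.856% lower. Of all these genes 52.8% had a negative difference, 8.0% were higher at an unadjusted p under 0.05 and 12.3% were lower, and the gene lists that follow are to be read against these shares. The array pattern of Chrna1 was described by Pearson's r over the 8 arrays against all other genes, with no test. Acss2, an acetyl-CoA synthetase gene, came closest (r = 0.98), followed by BC036642 (0.96), an intergenic transcript probe of chromosome 1 (0.96), Itgae (0.96) and AK031618 (0.95). The nearest of the other 9 genes was Lrp4 at r = 0.60, rank 1974 of 22322, then Dok7 at 0.58. Chrng was at -0.42. These values come from the same 8 libraries, which share their scale and background.

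The wider synaptic apparatus was read from 31 further genes: synaptic enzymes, laminins, dystrophin partners, neuregulin signalling and channels. All 31 were tested, 16 were higher and 15 lower, the median difference was 0.01, and limma called 0 of them, with 3 higher and 4 lower at an unadjusted p under 0.05 (8.0% and 12.3% of all genes). Ache, the acetylcholinesterase that ends transmission, read 7.91, 8.14, 7.93 and 8.03 on Co 1 to Co 4 and 7.53, 7.63, 7.69 and 7.62 on Pg 1 to Pg 4. Its groups were apart, and the difference of -0.39 (SE 0.07) had a limma q of 0.0517 but stayed under 1.5-fold. Scn4a, the adult muscle sodium channel, read 11.72, 11.77, 11.77 and 11.47 on Co 1 to Co 4 and 11.35, 11.46, 11.34 and 11.26 on Pg 1 to Pg 4. Its groups were apart by a narrow margin between Co 4 and Pg 2, and the difference was -0.33 (SE 0.08, limma q = 0.0847). In the 16 other settings the q of Ache was under 0.1 in 10 and that of Scn4a in 5. Sntb1, a syntrophin gene of the dystrophin complex, differed by -0.39 (limma q = 0.148). Lama5, a synaptic laminin chain, differed by 0.26 (limma q = 0.132).

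Genes known to respond to loss of the nerve are given for 9 genes, and not every gene of this kind was reported. Of these 9, 3 were higher and 6 lower, with a median of -0.13. The list was not split by the direction each gene takes after loss of the nerve, so this count and median do not measure that response. Limma called 0 of the 9, and 2 were higher and 1 lower at an unadjusted p under 0.05 (8.0% and 12.3% of all genes). Runx1, a transcription factor raised by denervation, read 7.996, 8.30, 8.48 and 8.43 on Co 1 to Co 4 and 8.86, 8.81, 8.47 and 8.90 on Pg 1 to Pg 4. Only Pg 3 lay within the Co range. It differed by 0.46 (limma q = 0.109) and Ncam1, an adhesion molecule that spreads along denervated fibres, by 0.26 (limma q = 0.204). Hdac9, a histone deacetylase gene, differed by 0.26 (limma q = 0.479). Hdac4, another gene of that family, differed by -0.30 (unadjusted p = 0.0268, limma q = 0.164). The remaining 5 had negative differences and unadjusted limma p values above 0.05, with Dach2 at -0.13, Myog at -0.12, Myod1 at -0.40, Gadd45a at -0.28 and Cdkn1a at -0.40. Single arrays weighed on the last and on Myod1. Cdkn1a read 12.61 on Co 1 against 11.18 to 12.09 on the other Co arrays. Myod1 read 7.19 on Pg 1 against 7.76 to 8.64 on the other Pg arrays.

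**Figure D4:**
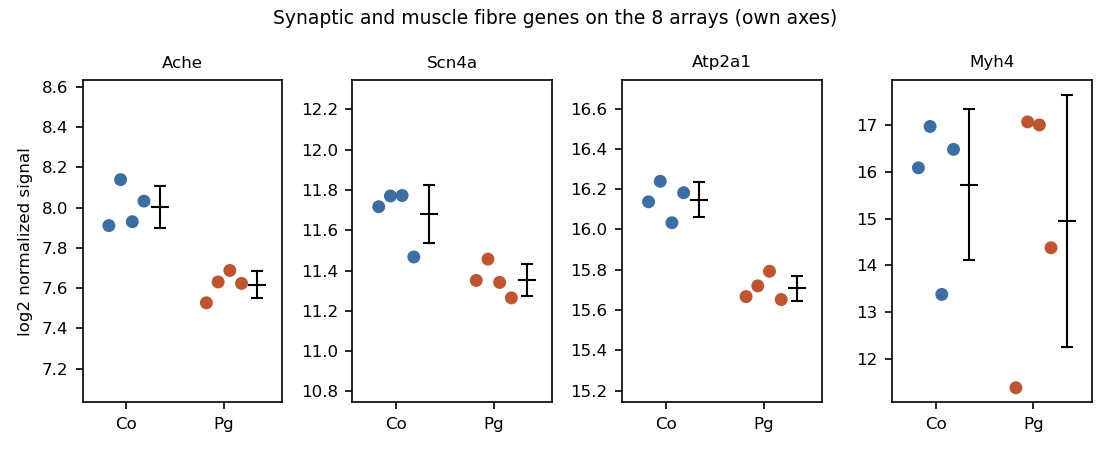
Log2 normalized signal (vertical axis, its own scale in each panel) of Ache, Scn4a, Atp2a1 and Myh4 on the 4 Co (blue) and 4 Pg (orange) arrays, with the mean and SD as a black bar. The groups are apart for the first 3 genes, and Myh4 spans 11.38 to 17.07.

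The other cell types of the synapse were also read. Of 8 motor nerve genes, 5 were tested and 0 called, with 0 higher and 1 lower at an unadjusted p under 0.05. That 1 was Chat, the enzyme that makes acetylcholine, at -0.49 (limma q = 0.170), and Slc18a3, its vesicular transporter, differed by -0.33 (limma q = 0.265), while Syt2, a calcium sensor of the nerve ending, differed by 0.12. The neurofilament gene Nefl was above background on no array, while Nefm, another such gene, had a probe above background on 6 arrays but was not tested. Of 9 Schwann cell genes, 8 were tested and 0 called, with 0 at an unadjusted p under 0.05, and the summed log2 signal was 13.38 to 13.72 in Co and 13.57 to 13.75 in Pg mice. The largest difference there was that of Erbb3, the neuregulin receptor, at -0.30 (limma q = 0.301), followed by the myelin genes Pmp22 at 0.18 and Mag at 0.12. Of the 11 neuronal acetylcholine receptor subunits, 5 were tested, 0 were called and 0 had an unadjusted p under 0.05, while Chrna3, Chrna4, Chrna5 and Chrnb2, common in autonomic ganglia and brain, were above background on no array. Chrna2 and Chrna9 were above background on all 8 arrays, Chrna2 at 11.94 to 12.36 and Chrna9 at 9.94 to 10.56, and differed by -0.03 and 0.07. Chrnb4 read 6.95 on Pg 1 against 4.62 to 5.44 on the other 7 arrays, and the sign of its difference between groups, 0.37, rests on Pg 1. Chrna10 and Chrna7 differed by -0.18 and 0.16. Both were dim, with Chrna10 above background on 4 Co arrays and 1 Pg array and Chrna7 on 3 and 1, so both entered the test mainly through the Co arrays.

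**Figure D5:**
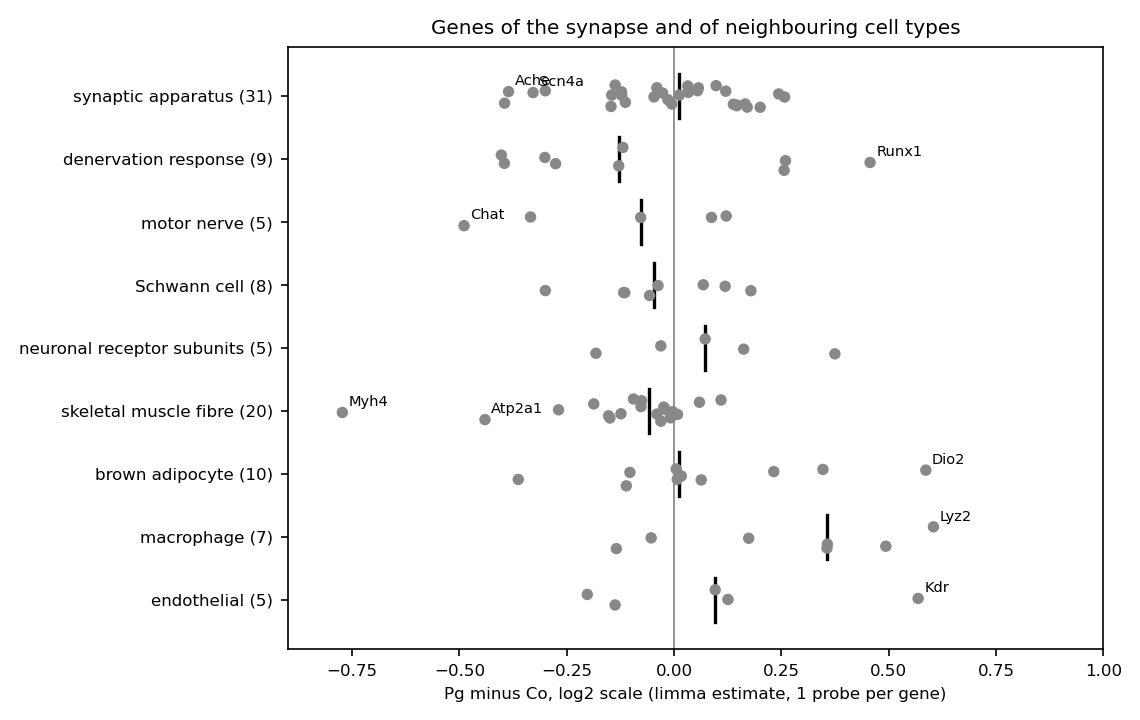
Pg minus Co difference on the log2 scale (horizontal axis) for each tested gene of 9 lists, with the number of genes in brackets. Black bars are list medians, and each point is a gene, none of which was called. The synaptic list centres on 0.01 and the macrophage list on 0.36.

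Muscle fibre genes were read last, with the remaining cell types. Of the 20 fibre genes, 3 were higher and 17 lower, with a median of -0.06, 0 called by limma and 4 lower at an unadjusted p under 0.05, where 52.8% of all genes were lower and 12.3% lower at that p. Quantile normalization fixes the values of the brightest ranks, and Tnnt3 and Tnni2, fast troponin genes, read 18.81 or 18.84 on every array, so their signs (0.0082 and -0.0082) are set by rank, and their values also enter the summed fibre signal. Acta1, Myh2, Tcap and Tnnc2 also lay among the brightest ranks, between 18.26 and 18.57, with differences of -0.02, 0.06, -0.03 and -0.09. Atp2a1, the calcium pump of fast fibres, differed by -0.44 (SE 0.06, limma q = 0.0411), which is under 1.5-fold, with groups that did not overlap. The same held for Mb, the myoglobin gene, at -0.15 (limma q = 0.149) and Ckm, the muscle creatine kinase gene, at -0.15 (limma q = 0.186). However, Mb too lies among the brightest ranks and read 18.47 on Pg 1, Pg 2 and Pg 4 alike. Myh4 at -0.77 and Actn3 at -0.27 had overlapping groups, and both signs rest on Pg 1. That array read 11.38 for Myh4, against 14.38 to 17.07 on the other Pg arrays. For Actn3 it read 10.49, against 13.07 to 14.01. Among other cells, the summed macrophage signal was 15.05 to 15.28 in Co and 15.01 to 15.66 in Pg mice with 5 of 7 genes higher and 2 lower, 0 called by limma and 0 at an unadjusted p under 0.05. Lyz2, a lysozyme gene, differed by 0.60 (limma q = 0.464), Adgre1, a surface receptor gene of macrophages, by 0.49 and Csf1r, their growth factor receptor gene, by 0.36, while Cd163 differed by -0.13 and Itgam by -0.05. Pg 3 was the lowest Pg array for the first 3, at 12.32 for Lyz2 against 12.98 to 14.22 on the other Pg arrays, at 6.85 for Adgre1 against 7.43 to 8.52 and at 10.47 for Csf1r against 11.33 to 11.88. The summed endothelial signal was 13.15 to 13.50 in Co and 13.45 to 13.59 in Pg mice with 3 of 5 genes higher and 2 lower, 0 called by limma, and 1 higher and 1 lower at an unadjusted p under 0.05. Kdr, a receptor for vascular growth factor, differed by 0.57 (limma q = 0.0573, under 0.1 in 6 of 16 other settings). Pecam1, a junction protein gene, differed by -0.20, Tek, the angiopoietin receptor gene, by -0.14, Cdh5, a cadherin gene of these cells, by 0.13 and Emcn, the endomucin gene, by 0.10. The part of these cells in the differences of the synaptic genes was not tested.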

How the data were processed

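RNA of 8 samples was hybridized in 1 colour (Cy3) to Agilent arrays, each array taken as 1 mouse. The authors deposited scanner files with spot intensity, made with Agilent Feature Extraction 11.0.1.1 per the submitters' processing notes, and with flags (other values) for well above background and outliers. They also deposited a table of 28067 rows of log2 values, quantile normalized between arrays. Each of its rows averages the probes of 1 accession, so that both Chrng probes share a row. Its columns of fold changes, p-values and q-values, the study's own comparison, were not used.

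The processed intensity of 59305 spots, without outlier flags, was averaged per probe, quantile normalized and taken to log2 with a floor of 1 intensity unit. Tests used limma 3.58.1 in R 4.3.3 with Benjamini-Hochberg adjustment over all 33819 probes above background on at least 4 arrays, and were tested on simulated data. Groups came from the sample titles. Nothing in the labels pairs the mice by replicate number, so no block entered the main test. Arrays with the same replicate number lay in the same column of the slide, so a replicate block is also a block of slide column. Array number, 4 per group, limits the precision. An exact permutation test of 4 against 4 cannot go below 0.0286.

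All 10 genes with every probe were described, with the called genes and the 3 largest differences per list (further genes were named after their values were seen), the 5 genes nearest to Chrna1, and Ucp1. The genes and lists were chosen with earlier results of these data known. Alternatives changed the signal, normalization, filter, block, reference level and arrays included. The receptor proteins were not analysed here, and a few genes are not reported here and were left out of the lists and their counts.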

Additional observations from a re-analysis of the deposited data

Results flagged for a closer look

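Within each group of 4 arrays, Dixon's test asked whether the highest or lowest array stood apart from the other 3. It marked 5 of the 38 groups (19 probes in 2 groups), and chance marks about 1 in 20. Co 2 was high for Chrne A_51_P482820, the main epsilon subunit probe, at 10.17 against 9.97 to 9.98 on the other Co arrays. Co 2 was low for Chrng A_55_P2745297, the called gamma subunit probe, at 3.42 against 4.22 to 4.38. Pg 3 was high for Dok7 A_51_P322941 at 10.27 against 9.92 to 9.96. Lrp4 A_66_P139374 was high on Co 4 at 8.10 against 7.68 to 7.74 and on Pg 4 at 8.12 against 7.76 to 7.82.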

How the results depend on the processing

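The count of called member probes was 1, and it stayed 1 under scaling to the 75th percentile. It was 0 with normexp, with the median signal, without normalization, with detection required on all 8 arrays (where neither Chrng probe was tested), without a filter, against the muscle genes and in the deposited table. Leaving out each array gave 0 to 0. Deviations of samples with the same replicate number, which is also their slide column, correlated by 0.06, -0.03, -0.07 and 0.18. With the number as a replicate block limma called 0 member probes and 0 of all probes. The brown adipocyte (Dio2) and endothelial (Kdr) counts ran from 0 to 1, the 1 being the fit without Pg 3.

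Over all probes, 546 were called (106 higher, 440 lower). This became 94 with normexp (66 higher, 28 lower), 108 with the median signal (75 higher, 33 lower), 283 with the 75th percentile (137 higher, 146 lower), 27 without normalization (20 higher, 7 lower), 372 without a filter (82 higher, 290 lower), 318 with detection on all arrays (107 higher, 211 lower), 303 against the muscle genes (35 higher, 268 lower) and 106 rows in the deposited table (60 higher, 46 lower). It ran from 3 (without Co 3) to 697 (without Pg 3) with arrays left out. The cause was not tested.

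Signs turned for 5 probes, none of them called. Lrp4 A_55_P2503635 (-0.07) became 0.046 with the 75th percentile and 0.096 without normalization, and ran from -0.14 to 0.024 with arrays left out. Lrp4 A_55_P2680519 (-0.09) became 0.013 and 0.063 in the same 2 settings. Dok7 A_51_P322941 (-0.02) became 0.0013 without normalization and ran from -0.14 (without Co 3) to 0.047 (without Co 4) with arrays left out. Left-out arrays moved Chrnb1 (-0.12) between -0.24 and 0.053 (without Pg 1), and Lrp4 A_66_P139374 (0.07) between -0.011 (without Pg 4) and 0.17. The other 13 tested probes kept their sign in every setting that gave a value. Dim signal limits both Chrng probes, Musk A_55_P2496660 and Chrne A_55_P2741190.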

Other observations

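Of the 10 brown adipocyte genes tested, 7 were higher and 3 lower in Pg mice, limma called 0, and 2 were higher and 0 lower at an unadjusted p under 0.05, against 8.0% and 12.3% of all genes tested. Dio2, the deiodinase that activates thyroid hormone in this tissue, differed by 0.59 (limma q = 0.129), and Pparg, the fat cell transcription factor, by 0.23 (limma q = 0.158) with groups that did not overlap. Ppargc1a, a coactivator of mitochondrial genes in fat and muscle, differed by -0.36 and Plin1, a lipid droplet protein gene, by 0.35, with overlapping groups. The Plin1 difference rests on Pg 1, at 8.27 against 6.69 to 7.29 on the other Pg arrays. Ppargc1a read 11.76 on Co 4 against 12.65 to 12.68 on the other Co arrays. Cidec and Adipoq, the adiponectin gene, were high on 1 array of each group. Cidec, a lipid droplet protein gene, read 10.12, 12.25, 10.17 and 10.07 on Co 1 to Co 4 and 11.81, 9.91, 10.36 and 10.56 on Pg 1 to Pg 4. Adipoq read 11.31 on Co 2 and 11.09 on Pg 1, against 9.61 to 10.23 on the other 6 arrays. Co 2 and Pg 1 were thus the arrays with the most signal from these 2 genes, and Plin1 was likewise highest on Co 2 (7.67) and Pg 1 (8.27), whereas Fabp4, a fatty acid binding protein gene of fat cells, was highest on Co 4 (16.43) and Pg 4 (16.57), and Cidea on Co 3 (13.51) and Pg 4 (13.52). Pg 1 was also the lowest array for Chrnb1, Lrp4 A_52_P635078 and Chrng A_51_P288009. Co 2 went the other way: it was the highest Co array for Chrnb1 (9.02) and Chrng A_51_P288009 (5.46). For Lrp4 A_52_P635078 it lay inside the Co range (9.98). A link between these genes and the junction genes was not tested.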
